A study of Homo sapiens with 7 samples.

Results

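Chromatin at 10 marker genes of colon stem cells was described in HCT116, a human colorectal carcinoma cell line. The genes were CD44, PROM1, ALCAM, OLFM4, SMOC2, EPHB2, EPHB3, BMI1, ALDH1A1 and MSI1, out of 20163 protein-coding genes of the GENCODE annotation on hg19. Every interval of 6 peak lists that touched a gene body or the 10 kb on either side of it was counted as belonging to the gene. The lists came from PIXUL-ChIP-seq, in which cells in a well of a 96-well plate were cross-linked and their chromatin was sheared by ultrasound in that same well. Each antibody gave 1 library from 1 well of about 200000 cells, without a replicate, so no difference below carries a replicate error or a test. The antibodies were against H3K4m1, H3K4m3, H3K9Ac, H3K36m3, H3K27m3 and CTCF. The H3K27Ac library was not analysed here. The lists hold no read counts, so depth is unknown, and fold enrichment was compared within a list only. The interval names of 5 lists carry the name of the cell line, whereas those of the H3K27m3 list do not, although its label names HCT116. Every H3K27m3 value below rests on that list alone, and values of the other marks do not use it.

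Stem cells at the base of the colon crypt renew the epithelium under the control of Wnt signalling. CD44 is a receptor for hyaluronan, PROM1 encodes the membrane glycoprotein CD133, and ALCAM encodes the adhesion molecule CD166. OLFM4 and SMOC2 encode secreted proteins of the crypt base. EPHB2 and EPHB3 are receptor tyrosine kinases for ephrin-B ligands that position cells along the crypt. BMI1 is a subunit of a Polycomb complex, ALDH1A1 is an enzyme that makes retinoic acid, and MSI1 binds RNA and regulates translation. H3K4m3 and H3K9Ac mark active promoters, H3K4m1 marks enhancers and the borders of promoters, H3K36m3 marks transcribed gene bodies, and H3K27m3 marks genes held silent by Polycomb. CTCF is a DNA-binding protein found at insulators and at the bases of chromatin loops.

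The genes differed widely in the DNA in front of their transcription start sites (TSS). The 150 bases upstream of the start are shown for 4 genes, to set the promoter with the highest CTCF value (EPHB3) beside the 3 promoters without any interval past the filter (SMOC2, OLFM4 and ALDH1A1). Coordinates are on hg19, letters run in the direction of transcription, and capitals mark CG dinucleotides.
EPHB3, chr3:184279423-184279572, plus strand: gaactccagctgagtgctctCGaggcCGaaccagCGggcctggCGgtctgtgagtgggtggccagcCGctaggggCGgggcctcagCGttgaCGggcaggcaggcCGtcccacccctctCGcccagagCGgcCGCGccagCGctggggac
SMOC2, chr6:168841681-168841830, plus strand: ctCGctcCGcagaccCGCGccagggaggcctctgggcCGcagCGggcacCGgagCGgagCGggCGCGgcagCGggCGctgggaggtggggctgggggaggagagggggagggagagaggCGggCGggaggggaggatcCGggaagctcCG
OLFM4, chr13:53602798-53602947, plus strand: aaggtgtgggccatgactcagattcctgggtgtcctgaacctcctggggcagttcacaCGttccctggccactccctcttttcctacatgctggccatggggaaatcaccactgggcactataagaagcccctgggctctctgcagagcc
ALDH1A1, chr9:75567973-75568122, minus strand: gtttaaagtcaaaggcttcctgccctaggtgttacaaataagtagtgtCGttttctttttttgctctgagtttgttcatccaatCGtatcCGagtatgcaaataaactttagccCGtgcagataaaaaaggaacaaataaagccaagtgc

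The window of SMOC2 ends 34 bp and that of ALDH1A1 4 bp before the canonical TSS, and the other windows end at the base next to it. The windows of SMOC2 and EPHB3 hold 17 and 14 CG dinucleotides. The window of ALDH1A1 holds 4 and that of OLFM4 holds 1.

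Intervals were called past the filter with the limits of the study's Methods, a q-value below 1e-03 with a fold enrichment above 2 for H3K4m1 and H3K27m3, and a q-value below 1e-10 with a fold enrichment above 5 for the other lists. Over the 10 genes the lists hold 179 intervals, of which 69 passed. By mark, 26 of 38 H3K4m1, 12 of 15 H3K4m3, 10 of 29 H3K9Ac, 0 of 28 H3K36m3, 3 of 39 H3K27m3 and 18 of 30 CTCF intervals passed. Over the whole lists, in the same order of marks, 63.9%, 79.1%, 37.2%, 0.225%, 2.81% and 54.8% of intervals passed. The low counts of H3K36m3 and H3K27m3 thus stand beside low shares of their whole lists. EPHB2 had the most intervals past the filter (13 of 23), followed by BMI1 (11 of 17). ALCAM and ALDH1A1 each had 8 past the filter, of 21 and 16. CD44 had 7 of 19, PROM1 6 of 18, EPHB3 6 of 15, SMOC2 5 of 31 and MSI1 5 of 11. OLFM4 had 0 of 8. Some intervals also lie within 1 kb of the TSS of another annotated gene. Without these, a setting added after the values were seen, EPHB2 had 11 past the filter, ALCAM and ALDH1A1 8 each, BMI1 7 and CD44 3, and the other genes kept their counts. The 4 left out at CD44 include its H3K4m3, H3K9Ac and H3K4m1 intervals at the TSS, which also lie at the start of the divergent gene CD44-DT.

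At the TSS, the 10 genes fell into 7 with the marks of active promoters and 3 with none. CD44, PROM1, ALCAM, EPHB2, EPHB3, BMI1 and MSI1 had H3K4m3 past the filter within 1 kb of the canonical TSS, a state found at 59.1% of all protein-coding genes. The same 7 genes had H3K9Ac there, beside 58.5% of all genes, and both marks together occurred at 57.5% of all genes. H3K4m1 lay at the TSS of 6 of them, all but PROM1, beside 49.1% of all genes. The counts of these 3 marks thus stood near the background. OLFM4, SMOC2 and ALDH1A1 had no interval of any of the 6 lists past the filter at the TSS, as had 33.9% of all genes. No gene of the 10 had H3K36m3 past the filter at its TSS (0.298% of all genes) and none had H3K27m3 there (1.22% of all genes). For H3K27m3 this depends on the window at BMI1. An H3K27m3 interval past the filter began 1023 bp downstream of its canonical TSS, just outside the 1 kb.

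The highest promoter values belonged to MSI1, at chr12:120806967 on the minus strand. Its H3K4m3 interval reached a fold enrichment of 37.9, above 96.5% of the genes that carry the mark at the TSS, whose median was 22.5. Its H3K9Ac interval reached 18.7, above 90.0% of the marked genes, whose median was 13.1. Its H3K4m1 interval, at 5.03, lay closer to the median of 4.69. All 3 intervals were between 2085 and 2519 bp wide and covered exons 1 to 4.

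The next 3 genes in H3K4m3 were close to each other. EPHB3 had 26.3, CD44 25.3 and EPHB2 24.6, higher than 68.8%, 63.7% and 59.8% of the marked genes. Their H3K9Ac values were 13.8 for EPHB3, 9.58 for CD44 and 10.3 for EPHB2, so that CD44 and EPHB2 stood in the lower part of the H3K9Ac list (above 17.9% and 23.3% of the marked genes). In H3K4m1 the order changed. CD44 had 7.03, higher than 92.0% of the marked genes, EPHB2 had 6.51, higher than 88.0%, and EPHB3 had 5.31, higher than 69.2%. 

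BMI1, PROM1 (chr4:15964699-16086001, minus strand) and ALCAM (chr3:105085753-105295744, plus strand) had the lowest H3K4m3 values among the 7 marked promoters, at 16.4, 14.7 and 13.2. These were higher than 21.5%, 16.2% and 11.9% of the marked genes. Their H3K9Ac values were 8.29, 9.56 and 9.58. H3K4m1 was 4.09 at BMI1 and 4.12 at ALCAM, above 22.3% and 23.7% of the marked genes, and PROM1 had no H3K4m1 interval at its TSS in the deposited list. Without a replicate, the spread that would separate neighbours in these orders is unknown.

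**Figure D1:**
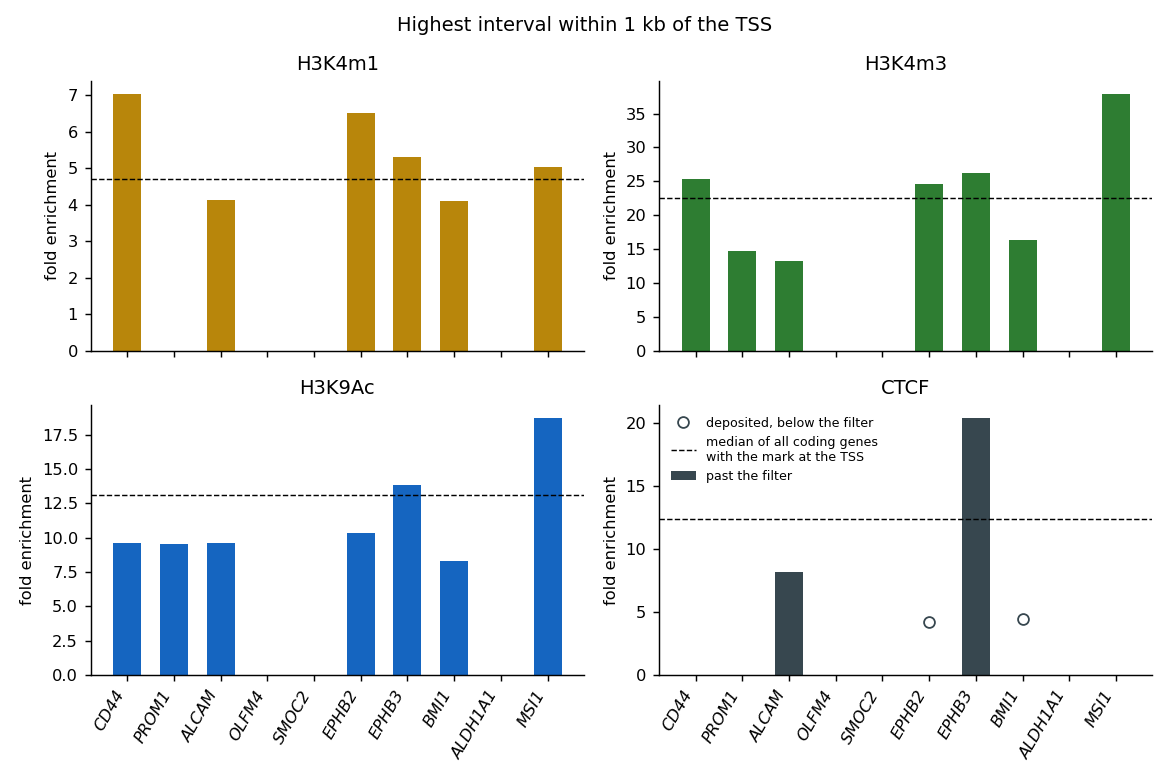
Fold enrichment (linear, vertical axis from 0) of the highest interval within 1 kb of the canonical TSS for each of the 10 genes, in 4 panels for H3K4m1, H3K4m3, H3K9Ac and CTCF. Bars are intervals past the filter, open circles deposited intervals below it, and dashed lines the median of all protein-coding genes with the mark at the TSS; OLFM4, SMOC2 and ALDH1A1 have no bar in any panel, and MSI1 has the highest H3K4m3 (37.9) and H3K9Ac (18.7) bars.

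The width of the promoter intervals gave a different order from their height. ALCAM, lowest in H3K4m3 fold enrichment, had the widest H3K4m3 interval, 5191 bp, wider than at 98.9% of the marked genes (median 2061 bp). Its H3K9Ac interval covered 7806 bp. At CD44 the H3K4m3 interval was 3113 bp wide, the H3K9Ac interval 7998 bp (wider than 93.9%) and the H3K4m1 interval 8862 bp (wider than 94.9%). These CD44 intervals started between -672 and -617 bp from the TSS, where negative distances lie upstream, and reached into intron 1. PROM1 had narrow promoter intervals, of 1358 bp for H3K4m3 (wider than 12.1%) and 1519 bp for H3K9Ac (wider than 4.33%). EPHB3 was narrow as well, with 1419 bp of H3K4m3 and 1888 bp of H3K9Ac.

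CG content was set beside H3K4m3 at the TSS. Within 500 bp of the TSS, a window of 1001 bp, MSI1 had 142 CG dinucleotides, BMI1 137, EPHB2 136, SMOC2 102 and EPHB3 100. ALCAM had 73, CD44 67 and PROM1 63. OLFM4 and ALDH1A1 had 13 each. Over all protein-coding genes the median was 81 at genes with H3K4m3 and 22 at genes without it. H3K4m3 was past the filter at 2.64% of the 3941 genes with fewer than 20 CG dinucleotides, at 32.3% of the 3160 genes with 20 to 49 and at 82.7% of the 13062 genes with 50 or more. OLFM4 and ALDH1A1 belong to the class that rarely carries the mark. SMOC2 has more CG dinucleotides than 82.8% of all genes and, of the 8 genes of this set with at least 50, is the one without H3K4m3.

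**Figure D2:**
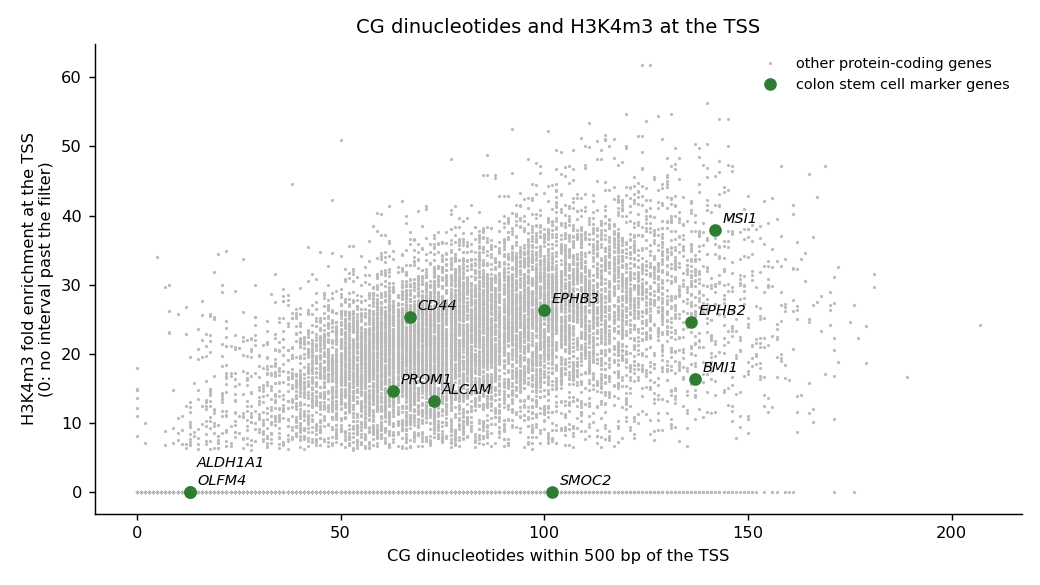
Number of CG dinucleotides within 500 bp of the TSS (horizontal axis) and H3K4m3 fold enrichment of the highest interval past the filter at the TSS (vertical axis, 0 where there is none), for all protein-coding genes (grey) and the 10 marker genes (green). SMOC2, with 102 CG dinucleotides, lies at 0, as do OLFM4 and ALDH1A1 with 13 each, while MSI1 stands highest at 37.9.

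Over the gene bodies, deposited intervals of both H3K36m3 and H3K27m3 were found in 4 genes (PROM1, EPHB3, BMI1 and ALDH1A1). H3K36m3 alone lay in CD44, ALCAM and MSI1, H3K27m3 alone in OLFM4 and SMOC2, and neither in EPHB2. No H3K36m3 interval of any of the 10 genes passed the filter, as in all but 0.496% of all genes, so H3K36m3 is described from all deposited intervals. Such intervals lay in the body of 7 genes, beside 56.3% of all genes. CD44 was covered over 91.7% of its 93521 bp, more than 96.3% of all genes, including an unbroken interval of 57832 bp (fold enrichment 4.44) over exons 2 to 18. MSI1 was covered over 54.1% and BMI1 over 46.3%. ALCAM had 13.2%, EPHB3 11.2% and PROM1 5.27%, in intervals with fold enrichments between 2.59 and 3.32. ALDH1A1 had 0.165%, from 1 interval of 297 bp. EPHB2 had no H3K36m3 interval although its H3K4m3 was above the median of the marked genes, and OLFM4 and SMOC2 had none either.

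H3K27m3 intervals past the filter lay in the body of 3 genes, SMOC2, BMI1 and ALDH1A1, beside 2.96% of all genes. The one over ALDH1A1 lies at a place, described further on, that all 6 lists cover, and without it 2 genes remain. Intervals past the filter covered 31.2% of BMI1, but only 1.28% of SMOC2 and 0.275% of ALDH1A1. SMOC2 and ALDH1A1 are long genes (232154 and 179772 bp), and a long gene is touched more easily. The share of all genes was not matched for length. Among all deposited H3K27m3 intervals, 6 genes were touched, beside 20.7% of all genes. OLFM4 was covered over 37.1%, BMI1 over 31.2%, SMOC2 over 28.9%, ALDH1A1 over 4.41%, EPHB3 over 3.01% and PROM1 over 0.711%. CD44, ALCAM, EPHB2 and MSI1 had none in the gene body. Upstream of PROM1, a deposited H3K27m3 interval of 9870 bp (fold enrichment 3.36, below the filter) spanned -10188 to -319 bp from the TSS that carries H3K4m3 and H3K9Ac.

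**Figure D3:**
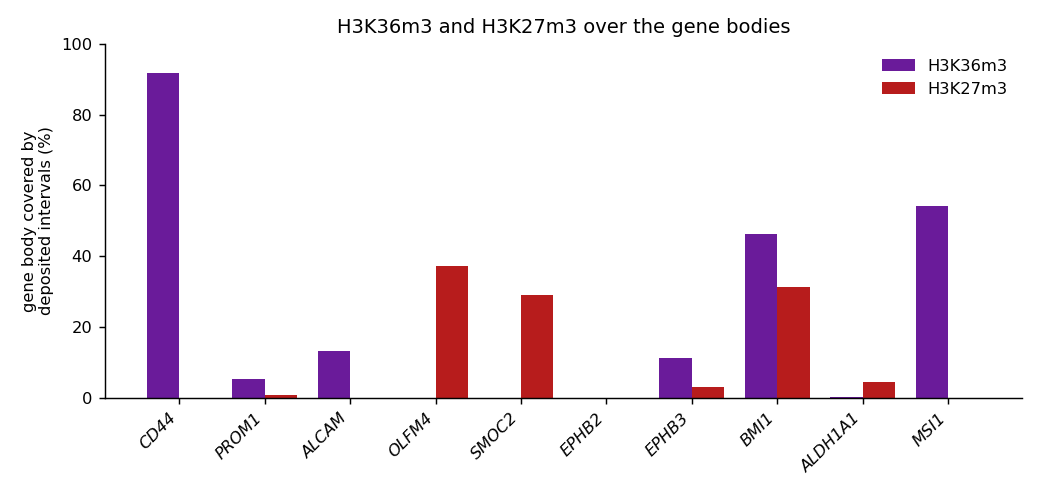
Share of each gene body (percent, vertical axis from 0 to 100) covered by deposited H3K36m3 intervals (purple) and deposited H3K27m3 intervals (red), past the filter or not. CD44 has 91.7% under H3K36m3 and none under H3K27m3, OLFM4 and SMOC2 have H3K27m3 only, BMI1 has 46.3% and 31.2%, and EPHB2 has neither.

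OLFM4 and SMOC2, both without an interval within 1 kb of the TSS, were not alike along their length. Just outside this window, deposited H3K27m3 intervals below the filter ended at -1020 bp from the TSS of OLFM4 and at -1090 bp from that of SMOC2. Such intervals were not particular to genes without H3K4m3 at the TSS. At MSI1 one of 2532 bp (3.18, below the filter) spanned -3631 to -1100 bp. At BMI1 one of 921 bp (3.14, below the filter) spanned -1778 to -858 bp. Around OLFM4, at chr13:53602948-53626192 on the plus strand, the lists hold H3K27m3 only, in 8 intervals with fold enrichments from 2.73 to 3.10, none past the filter. SMOC2, at chr6:168841831-169073984 on the plus strand, had 19 deposited H3K27m3 intervals. The widest spanned 22045 bp of intron 1 at a fold enrichment of 3.37. The one past the filter, at 4.14, covered 2969 bp of intron 7. SMOC2 also had 4 H3K4m1 intervals past the filter far from its TSS, which OLFM4 had not. The first, in intron 7, started 119266 bp downstream of the TSS with a fold enrichment of 3.77. In intron 9 there were intervals of 5.04 and 4.62, and the last, past the end of the gene, had 4.65. The last 3 overlapped deposited H3K9Ac intervals of 2.68 to 3.12, none of which passed the filter.

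CD44 and EPHB2 carried the longest stretches of H3K4m1. In CD44, at chr11:35160429-35253949 on the plus strand, an H3K4m1 interval of 19571 bp (fold enrichment 5.91) ran from 18417 to 37987 bp downstream of the TSS, over exon 2. It overlapped 3 deposited H3K9Ac intervals, of 2.78, 4.74 and 3.52. EPHB2, at chr1:23037332-23247993 on the plus strand, had 7 H3K4m1 intervals past the filter. The widest, in intron 3, covered 9375 bp with a fold enrichment of 6.80, slightly above the 6.51 at the TSS. Next to it in intron 3 lay 2 narrow intervals, of 521 bp (4.29) and 402 bp (4.80). In intron 1 of EPHB2 there were intervals of 5.33, 4.34 and 6.06.

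**Figure D4:**
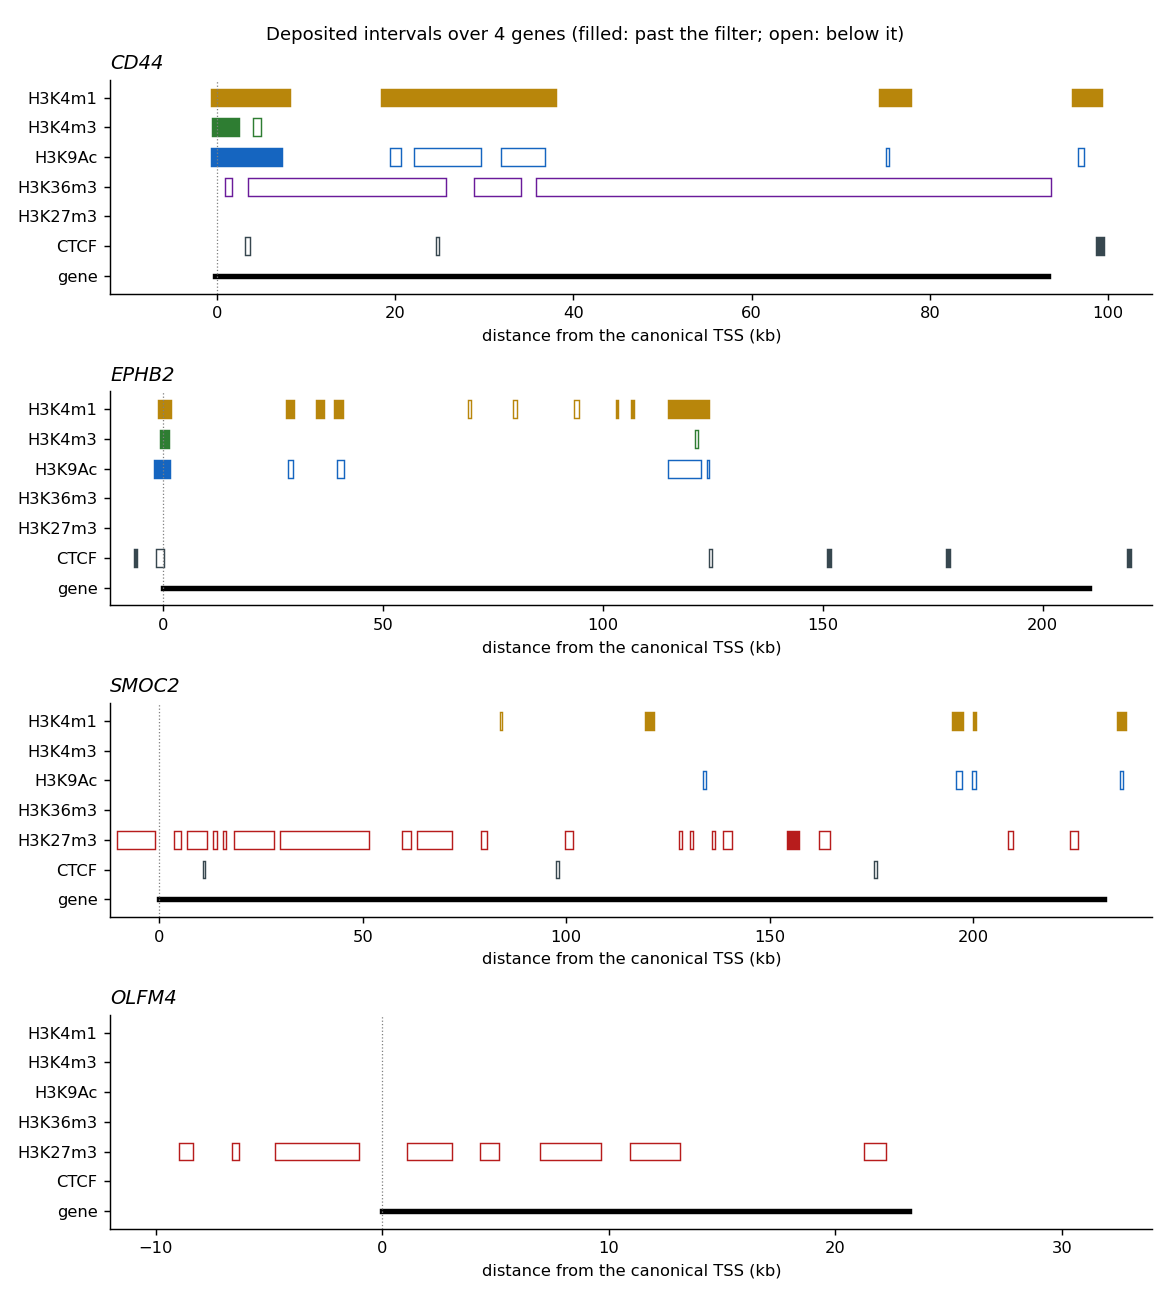
Deposited intervals of the 6 lists along CD44, EPHB2, SMOC2 and OLFM4 against the distance from the canonical TSS (kb, in the direction of transcription). Filled boxes passed the filter, open boxes did not, narrow boxes are drawn at a minimum width, and the black bar is the gene; EPHB2 has filled H3K4m1 boxes along its first part and no H3K36m3 or H3K27m3, and OLFM4 has open H3K27m3 boxes only.

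EPHB3, at chr3:184279573-184300196 on the plus strand, had a further H3K4m3 interval past the filter in intron 1. It covered 854 bp, from 7066 to 7919 bp downstream of the TSS, with a fold enrichment of 9.27. An H3K4m1 interval of 5476 bp (6.64) enclosed it, and a deposited H3K9Ac interval of 5105 bp (5.37, below the q-value limit) overlapped it. The interval is separate from the promoter interval, which ended 1075 bp downstream of the TSS.

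BMI1, at chr10:22610028-22620413 on the plus strand, held active and Polycomb marks side by side. The TSS interval of H3K4m3 spanned -904 to 1537 bp. A further H3K4m3 interval, with a fold enrichment of 10.3, spanned 3990 to 5333 bp over exon 2, with H3K9Ac of 8.06 and H3K4m1 of 4.88. Between them, from 1023 to 4265 bp, lay an H3K27m3 interval of 3243 bp with a fold enrichment of 5.02, which overlapped both. It was the widest of the 3 H3K27m3 intervals past the filter, and 6 annotated starts of BMI1 transcripts lie within 1 kb of it. Downstream of it a deposited H3K36m3 interval of 5038 bp (4.18) covered exons 3 to 10. Which cells or alleles carry each mark cannot be told from 1 library of each.

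Other genes share the BMI1 region. H3K4m3 of 18.8 and H3K9Ac of 12.6 lay at the TSS of COMMD3, at -4711 bp, which is next to the start of the readthrough gene COMMD3-BMI1. H3K4m3 of 31.5 and H3K9Ac of 19.2 lay at the TSS of the long non-coding RNA gene ENSG00000272366, 19516 bp downstream. Both H3K4m3 values exceeded that of the BMI1 TSS itself. Leaving out every interval within 1 kb of the TSS of another annotated gene, for all 10 genes together, H3K4m3 fell to 9 intervals past the filter and H3K9Ac to 7. This alternative was added after the values were seen.

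**Figure D5:**
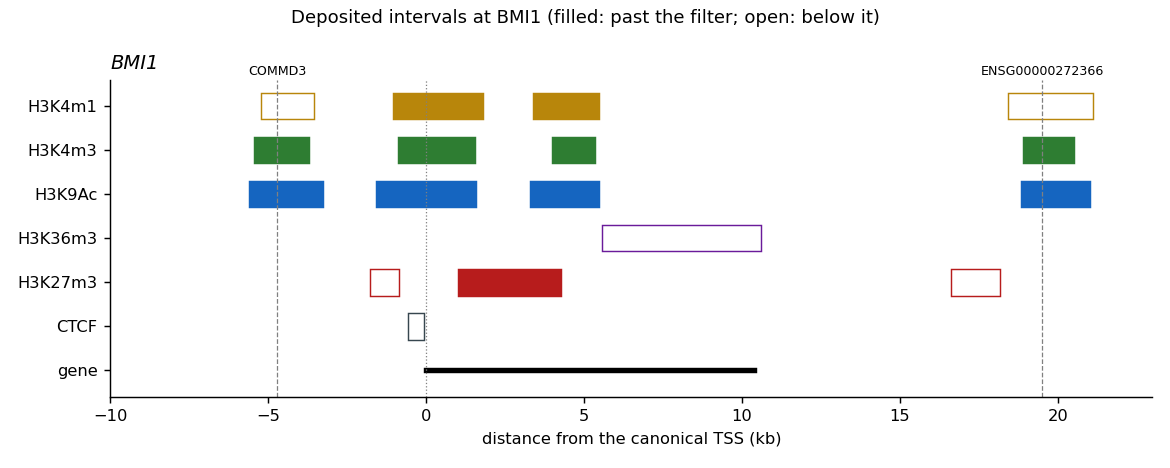
Deposited intervals of the 6 lists around BMI1 against the distance from its canonical TSS (kb). Filled boxes passed the filter and open boxes did not, the black bar is BMI1, and dashed lines are the TSS of COMMD3 and of ENSG00000272366; the filled H3K27m3 box (fold enrichment 5.02) lies between the H3K4m3 boxes at the TSS and over exon 2.

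ALDH1A1, at chr9:75515587-75695358 on the minus strand, had no interval past the filter at its canonical TSS (75567969). A deposited H3K27m3 interval of 2075 bp (2.68, below the filter) began 558 bp downstream of that TSS. Of its 8 intervals past the filter, 4 lay at a single place of 287 bp, upstream of the canonical TSS and inside the longer annotated gene. All 6 lists have an interval there. Its fold enrichment was 6.08 in the H3K4m1 list, 7.24 in that of H3K4m3 and 6.46 in that of H3K9Ac. It was 4.69 in the H3K36m3 list, 5.02 in that of H3K27m3 and 7.86 in that of CTCF. Over the genome, intervals of all 6 lists overlap at 40 places, and at 4 of these the widest interval is at most 500 bp. Without this place the 10 genes have 25 H3K4m1, 11 H3K4m3, 2 H3K27m3 and 17 CTCF intervals past the filter, and ALDH1A1 has no H3K4m3. The remaining ALDH1A1 intervals past the filter were H3K4m1 of 4.35 and CTCF of 7.83 near the 5′ end of the longest annotated transcript, and CTCF of 11.2 and 7.89.

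CTCF lay past the filter in the body or within 10 kb of 7 genes, beside 62.4% of all genes. This share too was not matched for gene length, and a long gene is touched more easily. The genes without CTCF were OLFM4, SMOC2 and BMI1. At the TSS itself it was found at ALCAM and EPHB3, beside 13.6% of all genes. The EPHB3 value of 20.4 was the highest CTCF value among the 10 genes, above 83.7% of the genes with CTCF at the TSS (median 12.4), and ALCAM had 8.15, above 17.3%. Among the other intervals past the filter, EPHB2 had 13.1 upstream, 16.4 in intron 3, 7.14 in intron 6 and 11.0 past its end. PROM1 had 13.8 in intron 5, 13.3 in intron 13 and 14.1 past its end, and CD44 had 15.3 past its end.

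The 12-base core sequence of CTCF was searched on both strands of these intervals. An exact match stood in 5 of the 18 intervals past the filter, a share of the same order as the 22.4% of all 24536 CTCF intervals past the filter. With 1 mismatch allowed, 11 of 18 held a match, beside 66.7% of 2000 intervals drawn from the list. The exact matches are shown in capitals with 9 bases on either side, each from an interval away from the promoter.
CD44, chr11:35259847.0-35259876.0, minus strand: gtaaagcatCCACTAGGGGGCgcattatca
PROM1, chr4:16027967.0-16027996.0, plus strand: tgaatttggCCACTAGATGGCagtaaggaa
EPHB2, chr1:23031108.0-23031137.0, plus strand: cttccaggaCCACCAGGTGGCagtcaagag
MSI1, chr12:120773403.0-120773432.0, plus strand: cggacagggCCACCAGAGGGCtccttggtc
MSI1, chr12:120794492.0-120794521.0, plus strand: tgctggctaCCACCAGAGGGCagcaccccc

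Both MSI1 windows hold the same 12 letters. The other 7 intervals past the filter held no match even with 1 mismatch. These were the intervals at the TSS of EPHB3 and ALCAM, one in intron 1 of ALCAM (11.5), those of EPHB2 in intron 3 (16.4) and intron 6 (7.14), and 2 of ALDH1A1 (11.2 and 7.86). This says only that these letters are not in those intervals.

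Away from the canonical TSS, 20 H3K4m1 intervals past the filter lay over 8 genes, all but OLFM4 and MSI1. Their median fold enrichment was 4.75 and their median width 2106.5 bp, beside 4.58 and 1754 bp for 23140 such intervals in the list. A deposited H3K9Ac interval overlapped 15 of the 20 (70.9% in the list), and one past the filter overlapped 2 (15.7% in the list), in ALCAM and BMI1. H3K4m3 past the filter overlapped 4 (12.7% in the list), in ALCAM, EPHB3, BMI1 and at the ALDH1A1 place that all 6 lists cover. CTCF past the filter overlapped 5 (18.2% in the list), in CD44, PROM1, ALCAM and 2 in ALDH1A1, one of them at the same place. Not all of these overlaps are far from promoters. The H3K4m3 and H3K9Ac intervals overlapped in ALCAM are those that contain its TSS. Other annotated starts of the same gene lie within 1 kb of some intervals, 4 at the BMI1 interval over exon 2 and 5 at the 19571-bp interval of CD44.

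Since several of these genes are known targets of Wnt signalling, the letters CTTTGAT and CTTTGAA, bound by TCF factors, were counted on both strands of the H3K4m1 and H3K9Ac intervals past the filter. A match stood in 12 of the 26 H3K4m1 intervals, while list intervals of like width held one in 49.2% on average. The density was 0.339 matches per kb, beside 0.331 in the list. In H3K9Ac, 5 of 10 intervals held a match (51.0% at like width), at 0.226 matches per kb beside 0.280 in the list. The 19571-bp interval of CD44 held 14 of the 30 matches in H3K4m1, where list intervals of like width had a median of 6. The H3K4m1 density of 0.339 thus leans on this 1 interval. The 4 intervals of SMOC2 held none. The CTTTGAT matches of the CD44 interval are shown, since this interval holds the most matches, with the match in capitals and 10 bases on either side.
CD44, chr11:35180980-35181006, minus strand: atcatctgcaCTTTGATaatctgctct
CD44, chr11:35181602-35181628, minus strand: gcaccttgatCTTTGATggccttggag
CD44, chr11:35186520-35186546, plus strand: gccatcgtcaCTTTGATtggcccctac
CD44, chr11:35192269-35192295, minus strand: tcaggatccaCTTTGATtcaagaagct
CD44, chr11:35193756-35193782, plus strand: gtagctattcCTTTGATtgtgctttgt
CD44, chr11:35198671-35198697, minus strand: gaaaagtctgCTTTGATccaagtctgc

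Beside these 10 genes stood 14 other genes of intestinal stem cells that matched the annotation. Of them 10 had H3K4m3, 10 H3K9Ac and 10 H3K4m1 at the TSS, with AXIN2 at 32.9 and SOX9 at 30.6 in H3K4m3. Over all protein-coding genes the shares were 59.1%, 58.5% and 49.1%. LGR5, the receptor for R-spondins, had H3K4m1 of 8.29 and H3K27m3 of 4.58 at its TSS without H3K4m3, a combination none of the 10 genes showed. TNFRSF19 had H3K27m3 of 4.04, and HOPX and DCLK1 had nothing past the filter at the TSS. Of 13 genes of differentiated colon cells, 1 had H3K4m3 at the TSS, CA2 with 38.7. The promoters of the 2 lists also differed in the ratio of CG dinucleotides to those expected from the C and G letters. Its median was 0.814 in the 14 stem cell genes and 0.244 in the 13 differentiated genes, beside 0.723 over all genes. The lists were not matched for CG content. No test was made of these differences between lists.

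Relatives of the 10 genes were listed in the same way, and 7 of 13 had H3K4m3 at the TSS, beside 59.1% of all genes. EPHB4, with 32.6, stood above EPHB2 and EPHB3, whereas EPHB1 had no H3K4m3 and had deposited H3K27m3 over 61.0% of its body. ALDH1A3, with 38.6, had H3K4m3 where ALDH1A1 and ALDH1A2 had none. ALDH1A2 did have H3K4m1 of 6.19 and CTCF of 14.8 at its TSS. SMOC1 was without H3K4m3 like SMOC2, and deposited H3K27m3 covered 66.2% of its body. None of this H3K27m3 cover of EPHB1 or SMOC1 passed the filter. MSI2 had 22.0 where MSI1 had 37.9, and PCGF2, a relative of BMI1, had 27.1.

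As a check of the cell line, 6 of 8 epithelial marker genes had H3K4m3 at the TSS, beside 59.1% of all genes. Their values lay between 21.8 (KRT8) and 31.6 (CDX2), while VIL1 and CDH17 had none. This check does not reach the H3K27m3 list, whose interval names lack the cell line. Of 10 marker genes of other cell types, COL1A1 (9.21) and SYT1 (11.5) had H3K4m3. COL1A1 also had H3K9Ac of 9.98 and H3K4m1 of 8.12 at its TSS, and SYT1 had neither.

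The gene with the most similar pattern was found for each of the 9 genes with an interval past the filter, as the smallest Euclidean distance over 7 measures (the log2 of 1 plus the TSS fold enrichment of 5 marks, and the fraction of the body under H3K36m3 and H3K27m3). It was NAA25 for CD44 (distance 0.110), RIMKLA for EPHB2 (0.110), PIGU for PROM1 (0.0381), PRR5-ARHGAP8 for MSI1 (0.0904) and PCCB for ALCAM (0.212). EPHB3 with TFEB (0.261) and BMI1 with TMEM161B (0.321) had the largest distances. TMEM161B had H3K4m3 of 17.0 and 45.8% of its body under H3K36m3 like BMI1, but no H3K27m3. SMOC2 lay nearest to FBXO39 (0.000195) and ALDH1A1 to DPP6 (0.00165). SMOC2 and ALDH1A1 have nothing past the filter at the TSS, so these matches rest on the cover of the gene bodies. That FBXO39 and DPP6 lack marks at the TSS follows from the measure.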

How the data were processed

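HCT116 cells were sonicated in PIXUL, and each of the lists used here comes from 1 library. Reads were mapped by the authors with BWA 0.7.12 (hg19). Peak calling was done with MACS2 in broad mode (cutoff 0.1), whereas the submitters' processing notes name MACS 1.4.2. Each interval carries a deposited fold enrichment, a linear ratio over background. The −log10 p-value, the −log10 q-value and the score that the authors deposited are values of the whole interval, and the score was not used further. The lists were deposited unfiltered, and depth is unknown from them.

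The limits of the Methods were applied, with CTCF under those for all other marks since no limits are named for it. Genes came from GENCODE 44 on hg19. The canonical transcript gave the TSS for 19881 genes and the 5′ end of the gene for the others. An overlap needed 1 bp. Some sequences are not reported here. All 10 genes are named. The genes, gene lists and tests were chosen with earlier results of these data known. Overlap counting was tested with simulated intervals and checked against bedtools 2.31.1, and 0 of 6 lists differed. Intervals of like width had 0.8 to 1.25 times the width. CD24 and PECAM1 of the gene lists did not match the annotation. Python 3.11.15, pandas 2.3.3, numpy 2.4.6, pyfaidx 0.9.0.4, matplotlib 3.10.9 and samtools 1.23.1 were used. Alternatives were other limits, windows, flanks and overlaps.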

Additional observations from a re-analysis of the deposited data

How the results depend on the processing

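Counts of intervals and genes were recomputed 82 times under other settings, and 68 stayed within 1.5 times the reported count. With all deposited intervals in place of those past the filter, the 10 genes had 29 H3K9Ac intervals in place of 10, 28 H3K36m3 in place of 0, 39 H3K27m3 in place of 3 and 30 CTCF in place of 18. At the TSS, H3K36m3 then lay at 1 gene (0 before), H3K27m3 at 3 (0 before) and CTCF at 4 (2 before). In the gene body, H3K36m3 lay in 7 genes (0 before) and H3K27m3 in 6 (3 before). With 50 kb on each side, CTCF intervals rose to 30. H3K27m3 was at the TSS of 1 gene, BMI1, with a window of 5 kb or with the TSS of any annotated transcript. It covered at least 10% of the body of 1 gene, also BMI1. With 1 mismatch in the core sequence, 11 CTCF intervals held a match in place of 5. The settings that left out the ALDH1A1 place covered by all 6 lists or the TSS of other genes were added after seeing the data. No paired analysis was possible because every antibody gave a single library. Unknown depth limits which weak intervals were called, so a missing interval does not show that a mark is absent.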
